A study of Mus musculus with 12 samples.

Results

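A mutant cytokine receptor and a guide against a chromatin regulator were set side by side: 3 libraries of mouse cells carrying CSF3R T618I alone against 3 libraries carrying the Asxl1 guide alone, 6 of the 12 libraries in the study. The assay was ATAC-seq, which marks accessible DNA through the places where a transposase can cut and tag it. The libraries were chosen by their labels and not by a measured value. The cells were HoxB8 cells, a bone marrow line immortalised with Hoxb8 and grown in stem cell factor and estrogen, and every library, of every group, was made 48 h after estrogen was taken away. The T618I group, sgNT/T618I, has a non-targeting guide and the vector pMICH-CSF3R-T618I. The guide group, sgB2/Empty, has guide B2 against Asxl1, made for a truncation, and the vector pMICH-Empty. The other 2 groups, with 3 libraries each, are sgNT/Empty, which has neither change, and sgB2/T618I, which has both. They entered the estimate of the spread and serve here as reference values. The receptor was overexpressed from a vector and Asxl1 was targeted by a single guide. The labels do not say whether the cells of a group are 1 clone, or whether its 3 libraries come from separate cultures, so p-values measure only the spread between these libraries.

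CSF3R binds granulocyte colony-stimulating factor, which drives neutrophil production, and signals through JAK kinases and STAT transcription factors. The T618I change activates the receptor without its ligand and is known from chronic neutrophilic leukemia. Asxl1 belongs to a complex with the deubiquitinase Bap1 and to the wider Polycomb system that silences developmental genes. Truncating mutations of it are frequent in myeloid leukemia and can occur together with CSF3R mutations. Maturing neutrophils fill primary granules first (Mpo, Elane), then secondary and tertiary granules (Ltf, Mmp8), and last acquire surface receptors such as Cxcr2 and Fpr1. The comparison asks how the accessible chromatin of cells with either change alone differs.

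The 2 groups differ by 2 changes at once, the vector and the guide. A difference between them does not say which of these goes with it, so for many of the genes below the values of cells with neither and with both are given beside it. All 12 deposited peak lists are per library, and depth is unknown. The unit used throughout is the peak-covered length within 50 kb of a gene, scaled so that every library has the same total covered length ("scaled kb"). Differences are sgNT/T618I minus sgB2/Empty on the log2(scaled bp + 500) scale, with the standard error, and a gene is called where the limma adjusted p (Benjamini-Hochberg, 15282 genes) is below 0.05.

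The T618I lists were longer and their peaks wider. The sgNT/T618I libraries held 28584, 26112 and 29642 peaks covering 16.8, 15.8 and 16.2 Mb, and the sgB2/Empty libraries 20293, 25252 and 25891 peaks covering 9.46, 12.2 and 13.2 Mb. The median peak width was 491 ± 32.8 bp against 409 ± 16.9 bp (SD, n = 3). None of these measures overlapped between the groups, and each gave an exact permutation p = 0.1 (two-sided), the smallest that 3 against 3 allows. The covered bases of 2 libraries overlapped more within a group (mean Jaccard index 0.619) than across the 2 groups (0.513; exact permutation p = 0.1, one-sided). Because the lists differ in length, every count of regions or genes below is a count relative to how the lists were scaled.

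At the level of single regions, most of the difference lay on the T618I side in the lists as deposited. Peaks of all 12 lists that overlapped by at least 1 bp were merged, and 37113 regions found in at least 2 libraries were compared. Of these, 2129 had a peak in all 3 sgNT/T618I libraries and in 0 of 3 sgB2/Empty libraries (5.74% of the regions), 368 the reverse (0.992%), and 15510 a peak in all 6. The balance turned round when each list was shortened to its strongest peaks covering the same total length: 261 regions were then on the T618I side and 1871 on the sgB2 side. In those shortened lists the sgNT/T618I libraries kept 12557 to 13818 peaks and the sgB2/Empty libraries 15790 to 19649. No region can pass a test of 3 against 3, so these are counts only.

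The promoters of 7 genes show what such regions are. They are the 250 bases upstream of the start in RefSeq (GRCm38.p6, the assembly of mm10), written in the direction of the gene, with matches to 6 searched motifs in capitals: STAT TTCNNNGAA, AP-1 TGANTCA, ETS GGAAGT, C/EBP TTGCNNAA, RUNX TGTGGT and, for GATA factors, AGATAA, each on both strands. The first 4 hold the strongest promoter peaks found in all sgNT/T618I and no sgB2/Empty library. Stfa2 (minus strand, chr16:36408364-36408613) and Stfa2l1 (plus strand, chr16:36156561-36156810) encode stefins, the cysteine protease inhibitors of granulocytes. Ifitm1 (plus strand, chr7:140967826-140968075) is an interferon-induced membrane protein gene, and Gsto2 (plus strand, chr19:47865295-47865544) encodes a glutathione transferase. Mmp8 (plus strand, chr9:7558179-7558428), the neutrophil collagenase gene, was added after its values were seen. Afap1 (plus strand, chr5:35893069-35893318), which encodes an actin filament protein, and Stx1a (plus strand, chr5:135023232-135023481), a syntaxin gene, hold the strongest promoter peaks of the reverse kind.

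Stfa2: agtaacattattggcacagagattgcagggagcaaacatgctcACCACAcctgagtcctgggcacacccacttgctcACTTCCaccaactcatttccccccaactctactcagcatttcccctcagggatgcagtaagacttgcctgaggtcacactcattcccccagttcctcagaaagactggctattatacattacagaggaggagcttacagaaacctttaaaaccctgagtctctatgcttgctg
Stfa2l1: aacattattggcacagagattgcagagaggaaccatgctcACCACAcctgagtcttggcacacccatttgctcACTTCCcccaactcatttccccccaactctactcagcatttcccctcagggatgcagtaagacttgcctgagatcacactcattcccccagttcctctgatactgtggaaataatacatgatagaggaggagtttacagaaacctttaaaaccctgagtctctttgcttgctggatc
Ifitm1: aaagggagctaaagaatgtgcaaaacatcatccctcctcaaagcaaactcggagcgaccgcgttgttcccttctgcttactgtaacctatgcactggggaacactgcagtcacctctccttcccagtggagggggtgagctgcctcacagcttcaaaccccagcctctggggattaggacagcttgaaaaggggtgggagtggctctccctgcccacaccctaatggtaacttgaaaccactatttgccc
Gsto2: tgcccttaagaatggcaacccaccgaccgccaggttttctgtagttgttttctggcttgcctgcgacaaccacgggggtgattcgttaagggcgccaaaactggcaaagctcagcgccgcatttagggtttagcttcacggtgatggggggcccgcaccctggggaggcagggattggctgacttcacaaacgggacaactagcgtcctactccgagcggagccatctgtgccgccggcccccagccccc
Mmp8: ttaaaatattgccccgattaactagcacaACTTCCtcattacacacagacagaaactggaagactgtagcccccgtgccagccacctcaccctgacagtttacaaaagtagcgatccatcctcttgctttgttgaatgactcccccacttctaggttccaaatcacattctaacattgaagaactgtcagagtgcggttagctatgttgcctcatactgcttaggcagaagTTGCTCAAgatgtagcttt
Afap1: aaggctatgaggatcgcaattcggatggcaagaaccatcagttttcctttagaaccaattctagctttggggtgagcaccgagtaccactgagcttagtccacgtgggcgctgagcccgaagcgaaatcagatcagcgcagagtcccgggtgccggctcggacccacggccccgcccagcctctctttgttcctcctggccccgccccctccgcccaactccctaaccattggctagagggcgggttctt
Stx1a: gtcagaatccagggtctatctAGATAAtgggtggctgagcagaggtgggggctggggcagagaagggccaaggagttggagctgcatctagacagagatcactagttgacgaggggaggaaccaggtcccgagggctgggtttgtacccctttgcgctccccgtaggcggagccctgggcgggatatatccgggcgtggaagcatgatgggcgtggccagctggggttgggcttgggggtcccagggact

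Both stefin promoters hold 1 ETS and 1 RUNX match, and the Mmp8 promoter an ETS match and a C/EBP match. The Stx1a promoter holds a GATA match. No letters of the 6 motifs were found in the windows of Ifitm1, Gsto2 and Afap1, which says only that they are not in these 250 bases. The peak over the Stfa2 promoter covered 608, 479 and 481 bp in the sgNT/T618I libraries, 0 bp in all sgB2/Empty and all sgNT/Empty libraries, and 351, 341 and 296 bp in the sgB2/T618I libraries. It was thus present in both groups with the receptor and in neither group without it, and the Mmp8 peak had the same pattern (368, 350 and 539 bp in sgNT/T618I, 320, 360 and 531 bp in sgB2/T618I, and 0 bp in the other 6). The peaks over Stfa2l1 and Ifitm1 were also found in sgNT/Empty, in 3 and 2 of 3 libraries, and in all 3 sgB2/T618I libraries. The Gsto2 peak stood apart from these, with 322, 370 and 319 bp in sgNT/Empty and a peak in only 1 of 3 sgB2/T618I libraries. On the other side, the Afap1 peak covered 216, 292 and 448 bp in sgB2/Empty and was found in every library except those of sgNT/T618I.

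Promoters are the smaller part of these regions. Of the T618I-side regions 7.48% lay within 1 kb of a RefSeq start, of the sgB2-side regions 5.82%, of those found in all 6 libraries 46.9% and of all regions compared 23.4%. Chromosome 18 is left out of these shares, since the start table does not cover it. The median distance to a start was 25.3 kb on the T618I side, 40.1 kb on the sgB2 side and 3.31 kb for regions in all 6. The regions of both sides were also weak within their lists, at a median rank percentile by −log10 q of 32.1 and 32.8 against 67.4 for regions in all 6. Over whole promoter windows of 300 bases (250 before to 50 after the start), an AP-1 match stood in 13.6% of the 147 windows with a T618I-side region, in 6.17% of all 21044 windows and in 3.32% of windows with a region found in all 6. The STAT motif stood in 6.12%, 6.64% and 5.43% of the same windows, and the C/EBP motif in 8.84%, 9.18% and 6.84%. ETS matches stood in 25.9%, 20.5% and 25.6%, and RUNX matches in 17.7%, 12.2% and 9.81%. The median GC content of these windows was 56.4%, 55.6% and 61.6%. The sgB2 side holds only 21 windows, so its shares are not given.

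The other 2 groups, which did not enter the choice of regions, were used to see where else these regions had peaks. The same split was not counted over all 37113 regions. The shortest of the 12 lists was an sgNT/Empty list (18484 peaks), and list length was not separated from the splits below, which are counts only. Of the 2129 T618I-side regions, 771 (36.2%) were found in at least 2 of 3 libraries of sgB2/T618I but not of sgNT/Empty, as were the Stfa2 and Mmp8 promoters. The reverse pattern, found without either change and not in the double group, held for 317 (14.9%), among them 2 regions at Amotl2. A further 418 (19.6%) were found mostly in both other groups and 623 (29.3%) in neither. The 254 regions found in all 3 sgB2/T618I and 0 of 3 sgNT/Empty libraries outnumbered the 67 of the opposite kind. The shares of 36.2% and 14.9% moved with the lists. They were 51.0% and 6.13% of the 261 T618I-side regions of equal-length lists, and 32.3% and 14.8% of 1404 with stricter peaks. Of the 368 sgB2-side regions, 83 (22.6%) went with sgB2/T618I, 103 (28.0%) with sgNT/Empty, 45 (12.2%) with both and 137 (37.2%) with neither. The first 2 shares were 16.4% and 30.1% in equal-length lists, and 15.3% and 36.7% with stricter peaks.

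**Figure D1:**
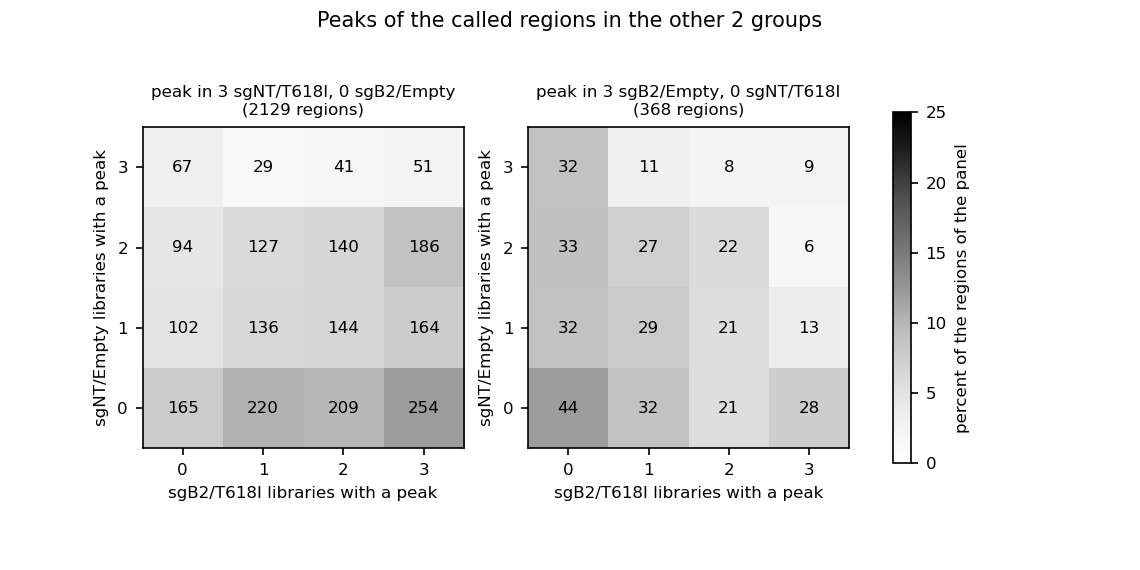
Number of regions by how many sgNT/Empty libraries (vertical axis, 0 to 3) and sgB2/T618I libraries (horizontal axis, 0 to 3) also had a peak there, for the 2129 T618I-side regions (left) and the 368 sgB2-side regions (right); shading is the percent of the panel. The fullest cell on the left holds the 254 regions found in every sgB2/T618I and no sgNT/Empty library, and on the right the 44 regions found in no other library.

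The regions with the highest ranks lay at genes of varied function. The strongest T618I-side region, at chromosome 15, 101123717 to 101124132, lies 3689 bp from Ankrd33, at a mean rank percentile of 94.3. It covered 383, 416 and 352 bp in sgNT/T618I, 0 bp in sgB2/Empty and 181 to 214 bp in sgNT/Empty, and was found in all 3 sgB2/T618I libraries, so sgB2/Empty was the group without it. A region 4091 bp from Ngp, the gene of a neutrophil granule protein (chromosome 9, 110415176 to 110415717), had that same pattern, and a region inside Ostf1 (chromosome 19, 18602981 to 18603430) was found only in the 6 libraries with T618I. On the other side, a region inside Pcbp3, which encodes an RNA-binding protein (chromosome 10, 76961713 to 76962271), covered 526, 401 and 431 bp in sgB2/Empty, 0 bp in sgNT/T618I and sgNT/Empty, and 449, 553 and 395 bp in sgB2/T618I. It was found only in the 6 libraries with the Asxl1 guide, as was a region 1695 bp from Slc22a4, a carnitine transporter family gene (chromosome 11, 54031735 to 54031986). A region inside the adenylate cyclase gene Adcy2 (chromosome 13, 68928447 to 68928820) was instead found in sgB2/Empty and sgNT/Empty only, that is, in the 6 libraries without T618I.

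Coverage per gene was the tested measure. Of 15282 genes, 532 were higher in sgNT/T618I (3.48% of those tested, in 297 separate loci) and 293 higher in sgB2/Empty (1.92%, 175 loci). On autosomes other than 1 the counts were 502 (3.59%) and 180 (1.29%) of 13969. T618I-side genes thus made up 64.5% of all calls, 98.8% (1196 against 14 genes) without scaling, where the median of all genes was 0.34 in place of -0.06. The scaling used a total that includes chromosome 1, whose share was higher in sgB2/Empty (below). Scaled to the length outside chromosomes 1 and X, the counts over all genes were 451 and 349 (56.4% on the T618I side). With the genes of both chromosomes also left out they were 409 and 199 (67.3%). In lists shortened to equal length the counts were 503 and 339, but only 181 genes were called in both analyses and 100 of the 825 called genes changed sign. Without sgNT/T618I replicate 1, 2 or 3 the calls fell to 314, 301 and 340, and without sgB2/Empty replicate 1 or 2 to 457 and 393. Coverage of 5076 genes (33.2%) did not overlap between the 3 and 3 libraries, so a lack of overlap alone is common here.

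**Figure D2:**
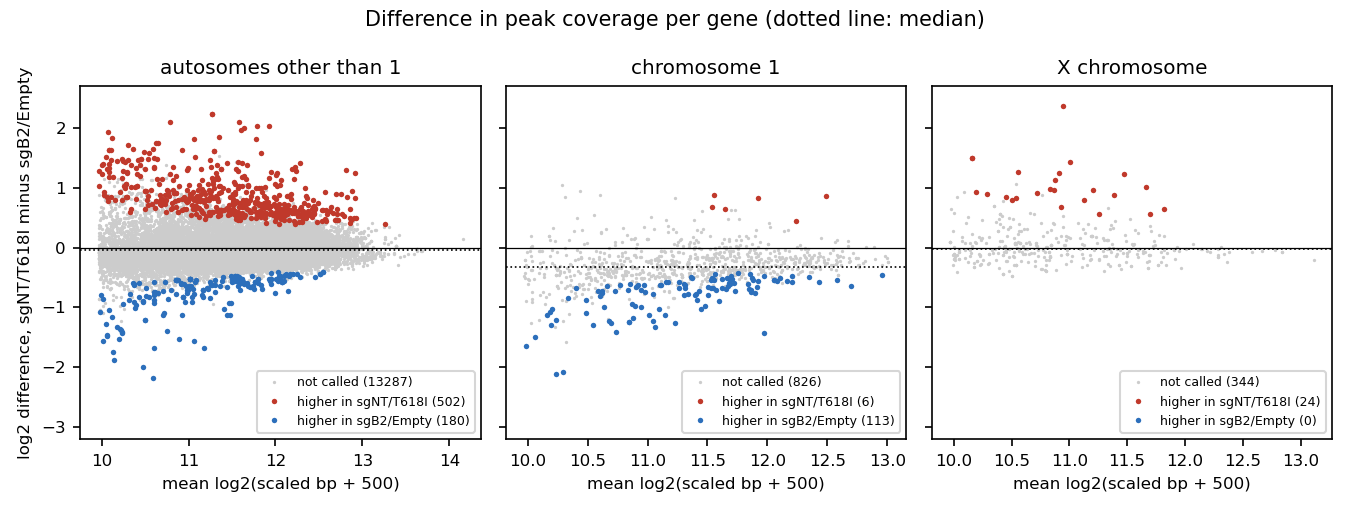
Log2 difference in scaled coverage (vertical axis) against mean log2 coverage (horizontal axis) for each of 15282 genes, in panels for the autosomes other than 1, chromosome 1 and X; red and blue points are called genes, and the dotted line is the panel's median. The autosomes lean to red (502 against 180), chromosome 1 lies below 0 with 113 blue points and 6 red, and X holds 24 red points and none in blue.

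The engineered genes came first. At Csf3r (chromosome 4, 126023441 to 126044975) the coverage was 4.76, 4.41 and 4.43 kb in sgNT/T618I against 3.39, 2.89 and 2.51 kb in sgB2/Empty, 3.40, 2.88 and 3.01 kb in sgNT/Empty and, in sgB2/T618I, 4.23, 4.38 and 4.39 kb. The 6 libraries with T618I lay above the 6 with the empty vector, and sgNT/T618I stood above sgB2/Empty by 0.56 ± 0.12 (limma adjusted p = 0.0128). The call was lost with a 10 kb window, with stricter peaks, in equal-length lists (0.01) and without sgNT/T618I replicate 1. A pair of regions upstream of the gene (chromosome 4, 125990289 to 125991181 and 126003993 to 126005124) were found in all 6 libraries with T618I and in 0 of the 6 others. At Asxl1 (chromosome 2, 153345830 to 153404007) the values were 5.13, 5.74 and 5.27 kb in sgNT/T618I against 2.23, 4.98 and 3.66 kb in sgB2/Empty, 2.28, 2.06 and 3.75 kb in sgNT/Empty and, in sgB2/T618I, 3.33, 4.90 and 4.23 kb. The difference between the single groups was not called (0.57 ± 0.22, limma adjusted p = 0.148), and peak lists cannot show whether the guide cut. Hoxb8 (chromosome 11, 96279401 to 96285325), the gene of the immortalising factor, was not called either (0.16 ± 0.23, limma adjusted p = 0.705).

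Some members of the lists for mature neutrophils and for late granules were called higher in the T618I cells, and no member of either list was called the other way. Of 19 measured mature neutrophil genes 10 were called higher in sgNT/T618I (52.6%, against 3.48% of all genes tested), 0 lower (against 1.92%) and 9 were not called, with a list median of 0.61 against -0.06 for all genes. Their mean coverage was 3.47 ± 0.04 kb in sgNT/T618I against 2.07 ± 0.19 kb in sgB2/Empty, 2.19 ± 0.44 kb in sgNT/Empty and, in sgB2/T618I, 3.28 ± 0.11 kb (SD, n = 3). Of 18 genes on the secondary and tertiary granule list 4 were called higher (22.2%), 0 lower and 14 were not called, at a median of 0.36. The 4 were Cd177, Mmp8, S100a8 and S100a9, of which S100a8 and S100a9 encode subunits of a protein of the cytoplasm. Some of the called members of the 2 lists share windows, namely Fpr1 with Fpr2 and S100a8 with S100a9, and Stfa2l1 and Stfa2 lie in 1 run of genes with overlapping windows. The lists were chosen with earlier results of these data known, and the mature neutrophil list holds Csf3r itself. The shares called therefore only describe these members. The mature neutrophil count fell to 2, 3 and 5 without sgNT/T618I replicate 1, 2 and 3, to 3 and 5 without sgB2/Empty replicate 1 and 2, to 4 with a 10 kb window and to 5 with list length as a covariate, while the list median lay between 0.47 and 0.67 over the fits with 1 library left out and fell to 0.28 in equal-length lists. The granule list median fell to 0.24 in equal-length lists and to 0.19 with stricter peaks. This is bulk material, in which fewer cells of a type and less open chromatin per cell cannot be told apart.

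**Figure D3:**
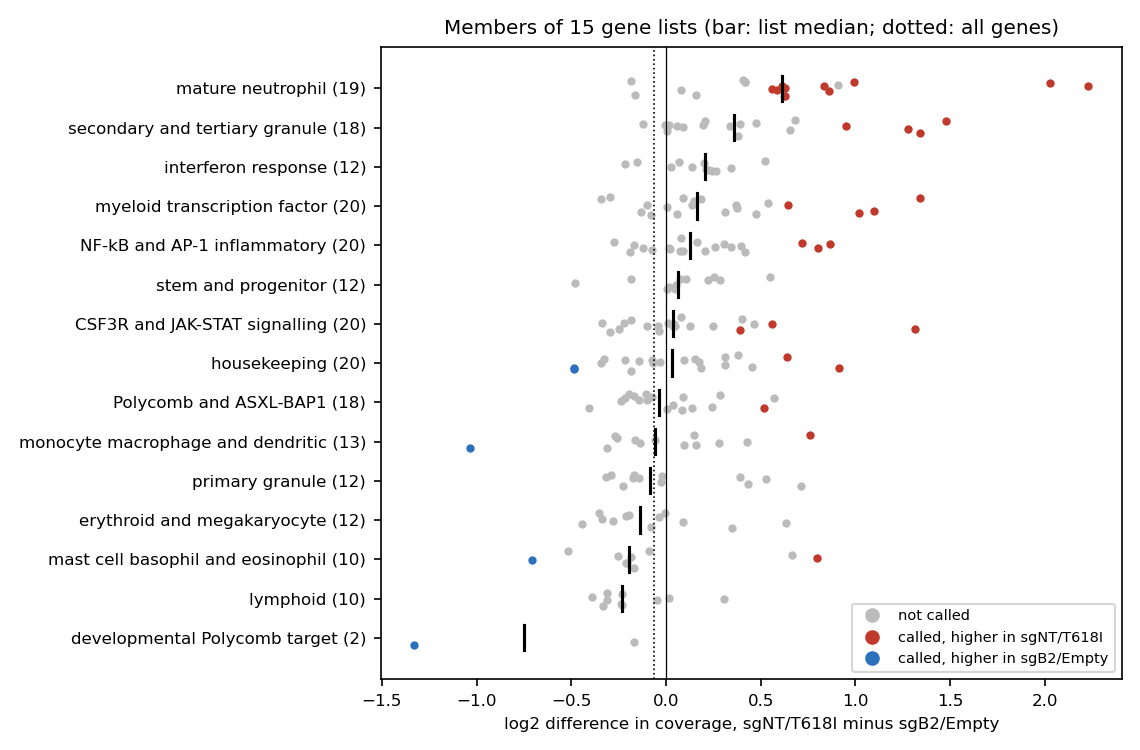
Log2 difference in coverage (horizontal axis) of every measured member of 15 gene lists (vertical axis, number measured in parentheses), 1 point per gene, with called genes in colour, the list median as a bar and the median of all genes as a dotted line. The mature neutrophil list has the highest median, 0.61 with 10 called members, and the primary granule list lies at -0.08 with 0.

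The stefin locus on chromosome 16 gave, together with Adam19, the largest differences toward T618I outside chromosomes 1 and X. Stfa2l1 (36156811 to 36161948) had 3.79, 3.53 and 4.20 kb in sgNT/T618I against 0.29, 0.57 and 0.43 kb in sgB2/Empty, 0.59, 1.18 and 1.34 kb in sgNT/Empty and, in sgB2/T618I, 2.65, 2.62 and 2.35 kb. The groups stood in a clear order, both groups with T618I above both without, and the single T618I group was 2.23 ± 0.18 above the single guide group (limma adjusted p = 4.7e-06). The call held in all 19 alternatives. Stfa2 (36403946 to 36408363) had 5.18, 5.81 and 5.95 kb against 0.59, 1.23 and 1.31 kb (2.03 ± 0.27, limma adjusted p = 0.000527), and Csta3 (36210403 to 36217788) 4.52, 4.87 and 4.89 kb against 0.68, 0.82 and 0.68 kb (2.10 ± 0.17). For Stfa2 the sgNT/Empty libraries had 0.73, 1.73 and 2.67 kb and those of sgB2/T618I 2.76, 4.24 and 4.07 kb, and for Csta3 0.97, 1.70 and 1.71 kb and 3.34, 3.88 and 2.63 kb. These 3 belong to a run of 12 stefin genes and neighbours with overlapping windows. The copies are near-identical in part, and how the authors treated reads that map to several of them is not given in the sources used here, so which stefin holds a peak is uncertain.

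S100a8 and S100a9 encode the subunits of calprotectin, an abundant protein of the neutrophil cytoplasm, and share a window on chromosome 3 (90669071 to 90670034 and 90692630 to 90695721). Around S100a9 the coverage was 6.59, 7.46 and 5.95 kb in sgNT/T618I against 2.25, 2.38 and 2.31 kb in sgB2/Empty, 3.30, 2.57 and 3.04 kb in sgNT/Empty and, in sgB2/T618I, 5.46, 5.40 and 4.86 kb. The libraries with T618I did not overlap those without it, and the double group lay between the single T618I group and the rest. The difference was 1.34 ± 0.12 (limma adjusted p = 1.07e-05), a 2.54-fold difference on that scale, and the call held in all 19 alternatives. The 3 regions that separate the groups here (90671459 to 90673377, 90682258 to 90682888 and 90691566 to 90692963) were each found in all 6 libraries with T618I and in 0 of the 6 others.

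Cd177, a glycoprotein of the neutrophil surface and granules, shares its locus on chromosome 7 (24743983 to 24760334) with Ceacam10. Coverage was 1.99, 1.25 and 1.91 kb in sgNT/T618I against 0.26, 0.42 and 0.19 kb in sgB2/Empty, 0.31, 0.00 and 0.17 kb in sgNT/Empty and, in sgB2/T618I, 0.84, 0.45 and 0.71 kb. The single T618I group stood above all others, the double group included (1.48 ± 0.22 against sgB2/Empty, limma adjusted p = 0.00123). A region at the Cd177 start (24761141 to 24761852) was found in all 3 sgNT/T618I libraries, in 1 sgB2/T618I library and in 0 of 6 libraries with the empty vector. Mmp8 (chromosome 9, 7558429 to 7568486), whose promoter is printed above, had 2.07, 3.84 and 2.63 kb against 1.16, 1.51 and 0.94 kb (0.95 ± 0.19, limma adjusted p = 0.00982), with 1.10, 1.21 and 1.42 kb in sgNT/Empty and, in sgB2/T618I, 2.94, 2.01 and 2.27 kb. That call was lost in equal-length lists (0.24), with stricter peaks and without sgNT/T618I replicate 2.

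Further genes of the mature neutrophil were called. Retnlg, a resistin-like protein of granulocytes, had 1.34, 1.60 and 1.35 kb against 0.34, 0.51 and 0.58 kb (0.99 ± 0.23, limma adjusted p = 0.0204). Fpr1, the receptor for bacterial formyl peptides, had 2.74, 3.26 and 2.71 kb against 1.60, 1.67 and 1.83 kb (0.63 ± 0.14). Neither pair of groups overlapped. The decoy interleukin-1 receptor gene Il1r2 (0.83 ± 0.20), the chemokine gene Ccl6 (0.61 ± 0.15), the integrin gene Itgam (0.59 ± 0.14) and the cytokine receptor gene Csf2rb (0.86 ± 0.24) also passed. Trem1, an amplifying receptor of neutrophils, had 3.95, 3.35 and 3.31 kb against 0.78, 2.16 and 2.42 kb and narrowly missed the threshold (0.91 ± 0.26, limma adjusted p = 0.0565). The chemokine receptor gene Cxcr2 (0.63 ± 0.22, limma adjusted p = 0.119), the surface marker gene Ly6g (0.16 ± 0.13) and, among granule genes, lactoferrin, Ltf (0.66 ± 0.21, limma adjusted p = 0.088), were not called.

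No primary granule gene was called between the 2 single changes. Of 12 members limma called 0 in either direction (5 at an unadjusted p below 0.05, 4 of them higher in sgNT/T618I), and the median was -0.08. Over all genes tested 3.48% and 1.92% were called in the 2 directions, so 0 of 12 does not set the list apart. Fitted on the 6 libraries alone, in equal-length lists, without scaling or without sgNT/T618I replicate 2, 1 member was called. Mpo, the myeloperoxidase gene (chromosome 11, 87793784 to 87804412), had 5.56, 6.63 and 6.59 kb in sgNT/T618I against 8.09, 7.22 and 8.38 kb in sgB2/Empty, 10.7, 8.29 and 7.20 kb in sgNT/Empty and, in sgB2/T618I, 5.23, 5.02 and 5.55 kb. The single groups did not overlap, but the difference of -0.31 ± 0.13 was not called (limma adjusted p = 0.162) and turned to 0.15 without scaling. Elane, the neutrophil elastase gene, gave -0.14 ± 0.13 and Ctsc, the gene of the protease that activates elastase, 0.72 ± 0.24 (limma adjusted p = 0.0907).

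Members of the list for CSF3R and JAK-STAT signalling were called higher in sgNT/T618I more often than genes in general, but the count was small and not stable. Of 20 genes of CSF3R and JAK-STAT signalling 3 were called higher in sgNT/T618I (against 3.48% of all genes tested) and 0 lower (against 1.92%), at a median of 0.04. The count fell to 1 in 10 kb windows and in every fit with 1 library left out except that without sgB2/Empty replicate 3, which called 2. Il4ra, the interleukin-4 receptor chain (chromosome 7, 125552271 to 125579474), had 5.73, 6.69 and 5.13 kb in sgNT/T618I against 1.38, 2.12 and 2.82 kb in sgB2/Empty, 1.57, 3.71 and 3.57 kb in sgNT/Empty and, in sgB2/T618I, 6.67, 4.66 and 5.90 kb. Both T618I groups lay above both others (1.32 ± 0.24, limma adjusted p = 0.00563), a call that was lost in equal-length lists (0.11). Bcl3, a nuclear partner of NF-kB (0.56 ± 0.14), and Socs3, the feedback inhibitor of this receptor (5.26, 5.19 and 4.85 kb against 3.89, 3.70 and 3.71 kb, 0.39 ± 0.10), were called as well. Socs3 lost its call in 11 of 19 alternatives. The kinase gene Jak2 (-0.18 ± 0.17) and the transcription factor gene Stat3 (0.01 ± 0.15) were not called.

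Transcription factors and inflammatory genes were called in the same direction where they were called. Of 20 myeloid transcription factors 4 were higher in sgNT/T618I and 0 lower (median 0.17), and of 20 NF-kB and AP-1 inflammatory genes 3 and 0 (median 0.13). The shares called higher were 20% and 15%, against 3.48% of all genes tested, whose median was -0.06. Of all genes 1.92% were called lower, so 0 lower of 20 does not set either list apart. Klf6, a zinc finger factor of myeloid cells (chromosome 13, 5861489 to 5870393), had 3.17, 3.20 and 3.45 kb in sgNT/T618I against 1.21, 1.22 and 1.35 kb in sgB2/Empty, 1.25, 2.43 and 2.52 kb in sgNT/Empty and, in sgB2/T618I, 3.66, 3.45 and 2.33 kb. The difference was 1.10 ± 0.19 (limma adjusted p = 0.00399), lost with a 10 kb window and with stricter peaks. Irf4, an interferon regulatory factor, had 2.66, 1.53 and 1.85 kb against 0.45, 0.00 and 1.46 kb (1.34 ± 0.33). Its sgNT/Empty libraries, at 1.52, 1.87 and 1.49 kb, ran from just above the highest guide library into the T618I range. The Irf4 call was lost in 7 of 17 alternatives. Klf2 (1.02 ± 0.27) and Etv6 (0.64 ± 0.14) were also called. Klf2 lost its call in 11 of 19 alternatives, and Etv6 turned to -0.32 in equal-length lists. The transcription factor count fell to 1 in 10 kb windows, with list length as a covariate, without sgNT/T618I replicate 1 and without sgB2/Empty replicate 2.

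The cytokine gene Il6 had 0.60, 1.12 and 0.71 kb in sgNT/T618I against 0.26, 0.25 and 0.22 kb in sgB2/Empty, 0.00, 0.25 and 0.18 kb in sgNT/Empty and, in sgB2/T618I, 1.22, 1.42 and 1.49 kb. The double group was the highest, and the single groups differed by 0.80 ± 0.20 (limma adjusted p = 0.0272). The neighbouring chemokine genes Ccl3 (0.72 ± 0.19) and Ccl4 (0.86 ± 0.17), which draw monocytes and lymphocytes, share a window. Both lie in 1 run of 7 called genes with overlapping windows, which also holds Ccl6 of the mature neutrophil list, so calls in the 2 lists are not separate here. In 10 kb windows, in equal-length lists and with stricter peaks 0 of the measured inflammatory genes were called by limma, and 1 or 2 in each fit with 1 library left out. Of 12 interferon response genes 0 were called in either direction by limma (median 0.21, 1 at an unadjusted p below 0.05), also in each fit with 1 library left out. With 12 members, 0 is near the shares of all genes tested (3.48% and 1.92%).

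Few members of the lists for other cells and for the Polycomb system were called. Over all genes tested 3.48% were called higher in sgNT/T618I and 1.92% higher in sgB2/Empty. With so few members per list, a count of 0 or 1 does not set a list apart from those shares. Of 12 stem and progenitor genes 0 were called by limma (2 at an unadjusted p below 0.05, 1 in each direction), with Kit, the receptor for stem cell factor, at -0.48 ± 0.17 (limma adjusted p = 0.116) and the progenitor factor Myb at 0.55 ± 0.19 (limma adjusted p = 0.104). In equal-length lists 4 of them were called, with Kit at -1.78 and Myb turned to -0.87. Of 10 lymphoid and 12 erythroid and megakaryocyte genes 0 were called by limma (1 and 4 at an unadjusted p below 0.05), at medians of -0.23 and -0.14. Among 13 monocyte, macrophage and dendritic genes the chemokine receptor gene Ccr2 was called higher in sgNT/T618I (0.76 ± 0.16) and the macrophage factor Maf higher in sgB2/Empty (-1.04 ± 0.27). Among 10 genes of mast cells, basophils and eosinophils Hdc, the histamine-forming enzyme gene, was called at 0.80 ± 0.22 and the IgE receptor chain gene Ms4a2 at -0.71 ± 0.19. Ccr2, Hdc and Ms4a2 changed sign in equal-length lists. Over the alternatives Maf kept its call in 8 of 15, Ccr2 in 15 of 19, Ms4a2 in 9 of 19 and Hdc in 4 of 19. The summed coverage of the whole monocyte list was 33.5 to 36.3 kb in sgNT/T618I and, in sgB2/Empty, 33.1 to 38.9 kb, with Marco, Ms4a7, C1qa and C1qb among the members under the filter. The lymphoid list summed to 18.51 to 19.04 kb against 19.03 to 22.32 kb.

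Of 18 measured Polycomb and ASXL-BAP1 genes 1 was called, Eed, which encodes a core subunit of Polycomb repressive complex 2 (0.52 ± 0.14, limma adjusted p = 0.0382), and 0 by limma in each fit with 1 library left out. Eed turned to -0.17 with a 10 kb window. Among the 20 targets of Polycomb in development, 2 had enough coverage to be tested. Of these, Pax2, a kidney and eye development factor, had 0.25, 0.00 and 0.70 kb in sgNT/T618I and, in sgB2/Empty, 1.13, 1.08 and 2.27 kb (-1.33 ± 0.33, limma adjusted p = 0.0282). The sgNT/Empty libraries had 0.81, 0.20 and 1.02 kb and those of sgB2/T618I 0.20, 0.00 and 0.25 kb. The Pax2 call was lost in 8 of the 16 alternatives that measured it, including those without sgNT/T618I replicate 1 or 2 and without sgB2/Empty replicate 1 or 3. Gata4 was not called (-0.17 ± 0.16). Of 20 housekeeping genes, 2 were called in each direction (10.0% each, against 3.48% and 1.92% of all genes tested). Pgk1 and Eef2 were higher in sgNT/T618I, and Polr2a and Tbp higher in sgB2/Empty. With a 10 kb window limma called 0 of them.

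Outside the lists, the largest differences toward T618I came from genes of varied function. Adam19, a membrane metalloprotease gene (chromosome 11, 46054502 to 46147347), had 1.89, 3.16 and 1.15 kb in sgNT/T618I and, in sgB2/Empty, 0.00, 0.23 and 0.00 kb, with 0.00, 0.20 and 1.74 kb in sgNT/Empty and, in sgB2/T618I, 2.15, 2.84 and 1.85 kb. One sgNT/Empty library thus lay within the T618I range (2.10 ± 0.41 between the single groups, limma adjusted p = 0.00803). Ceacam10, a cell adhesion gene next to Cd177 (1.94 ± 0.29), Rnf217, a ubiquitin ligase gene (1.84 ± 0.34), Eps8, a regulator of actin (1.83 ± 0.35), and Gm5150 (1.64 ± 0.28) followed. Mean coverage of Ceacam10 in sgNT/T618I, sgB2/Empty, sgNT/Empty and sgB2/T618I, in that order, was 1.66, 0.07, 0.05 and 0.52 kb. In the same order it was 3.09, 0.58, 2.53 and 2.23 kb for Rnf217. For Eps8 it was 1.56, 0.08, 0.54 and 0.26 kb, and for Gm5150 1.55, 0.17, 0.38 and 2.05 kb. Amotl2, a gene of the Hippo pathway (chromosome 9, 102717091 to 102733418), had 1.72, 1.46 and 1.44 kb in sgNT/T618I against 0.00, 0.00 and 0.41 kb in sgB2/Empty, 1.56, 2.82 and 1.87 kb in sgNT/Empty and, in sgB2/T618I, 0.22, 1.23 and 0.46 kb. Here the cells with neither change were as high as the T618I cells (1.74 ± 0.29 between the single groups, limma adjusted p = 0.00291). The region at its start (102717249 to 102718119) was found in all 6 libraries with the non-targeting guide and in 0 of 6 with the Asxl1 guide.

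Differences toward the Asxl1 guide were fewer on these chromosomes but of similar size. Nme9, a member of the nucleoside diphosphate kinase family that shares a locus with Mras (chromosome 9, 99456243 to 99479899), had 0.00, 0.00 and 0.17 kb in sgNT/T618I against 1.60, 2.11 and 2.30 kb in sgB2/Empty, 1.06, 0.69 and 1.36 kb in sgNT/Empty and, in sgB2/T618I, 0.97, 1.47 and 0.78 kb. Cells with neither or both changes lay between the single groups (-2.18 ± 0.21, limma adjusted p = 2.67e-05). Gask1b, which encodes a Golgi protein (chromosome 3, 79884484 to 79946278), had 0.19, 0.00 and 0.33 kb in sgNT/T618I and, in sgB2/Empty, 2.40, 1.33 and 1.30 kb, with 1.62, 1.72 and 1.49 kb in sgB2/T618I and 0.34, 0.50 and 1.43 kb in sgNT/Empty (-1.68 ± 0.28 between the single groups, limma adjusted p = 0.00256). Both groups with the guide were high, but 1 sgNT/Empty library lay within their range. Slc16a7, a monocarboxylate transporter gene (chromosome 10, 125219270 to 125389586), was listed at 0 in all 3 sgNT/T618I libraries, with 0.76, 0.66 and 1.57 kb in sgB2/Empty, 0.81, 1.44 and 1.39 kb in sgNT/Empty and, in sgB2/T618I, 0.29, 0.90 and 0.32 kb. The double group was thus not at 0, and 1 of its libraries lay within the range of the groups without T618I.

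Abca8b, a lipid transporter gene (-1.87 ± 0.34), Sspo, which shares a locus with Zfp467 (-1.52 ± 0.22), Tfpi2, a protease inhibitor gene (-1.43 ± 0.27), and Rasgrf2, an activator of Ras (-1.46 ± 0.39), were called in the same direction. Rasgrf2 lost its call in 11 of 16 alternatives. Vmn2r114 (-1.67 ± 0.34) is one of 3 neighbouring vomeronasal receptor genes with similar copies, so its peaks are uncertain in the same way as those of the stefins. The sgNT/T618I side of the called genes, 532 in all, had a median T618I change (mean over both guides) of 0.50 and a median sgB2 change (mean over both vectors) of -0.28, whose difference is the comparison itself. For the 180 genes of the other side outside chromosomes 1 and X these were -0.37 and 0.27. These 2 changes share libraries with the comparison and are given only to describe it.

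**Figure D4:**
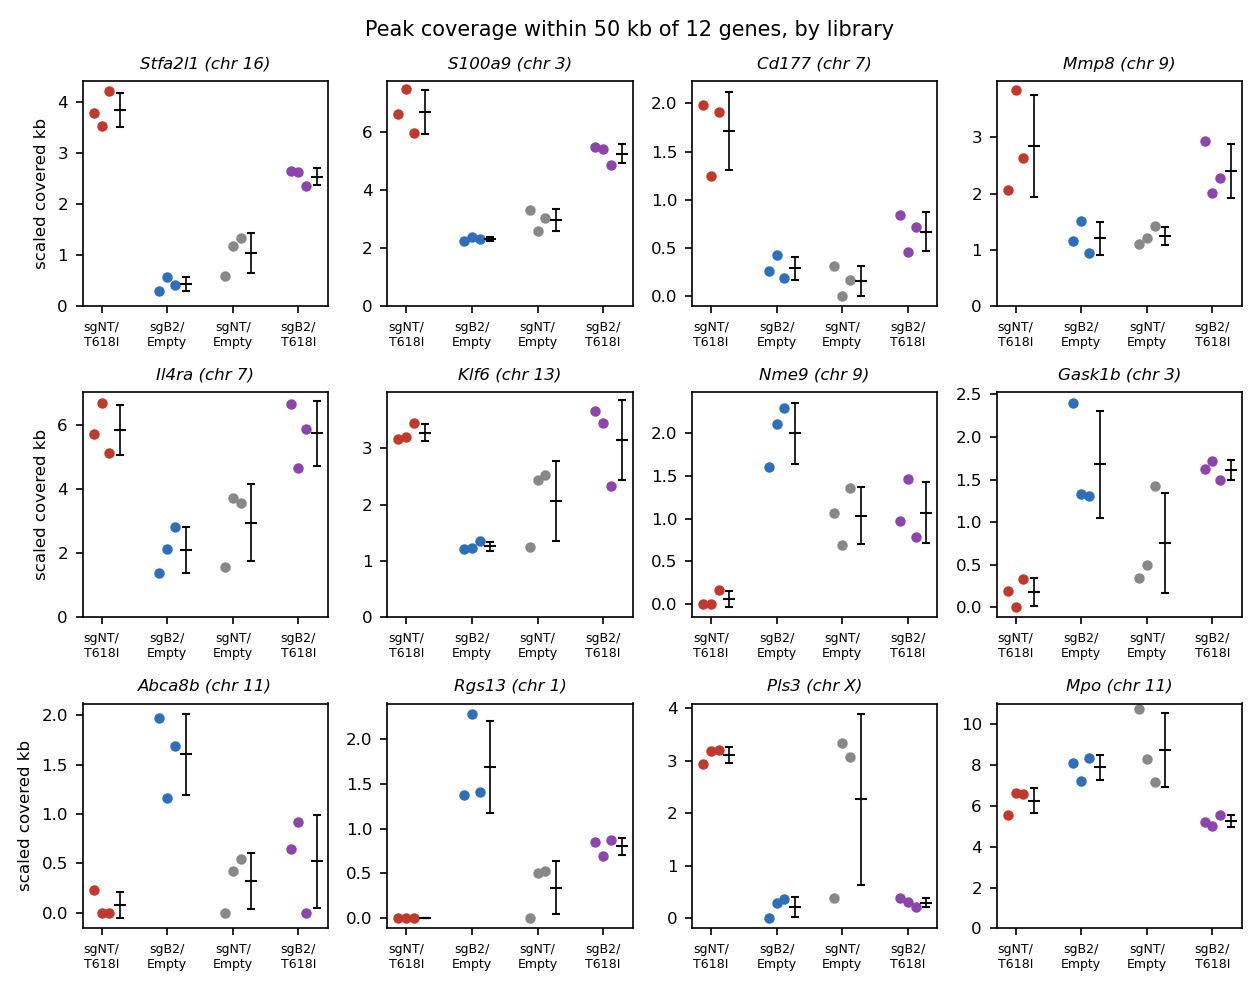
Scaled peak-covered kb within 50 kb of 12 genes (vertical axes) in every library of the 4 groups (horizontal axes), points for libraries and bars for mean ± SD (n = 3). Stfa2l1, S100a9 and Mmp8 are high in both groups with T618I, Rgs13 is listed at 0 in all sgNT/T618I libraries, and Pls3 is low in the 6 libraries with the Asxl1 guide and in 1 sgNT/Empty library.

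Chromosome 1 stood apart from the other autosomes. Its share of all covered bases was 6.59, 6.73 and 6.86% in sgNT/T618I, 8.75, 10.1 and 9.27% in sgB2/Empty, 6.40, 6.64 and 6.65% in sgNT/Empty and 8.89, 9.70 and 8.83% in sgB2/T618I. Every library with the Asxl1 guide lay above every library with the non-targeting guide, whatever the vector, and the sgB2/Empty mean was 39.2% above that of sgNT/T618I. All 10 bins of 20 Mb along the chromosome had higher shares in all 3 sgB2/Empty libraries, by 1.30 to 1.61 times. X went the other way, with 2.18 ± 0.03% in sgNT/T618I and 2.19 ± 0.09% in sgNT/Empty against 1.85 ± 0.02% in sgB2/Empty and 1.77 ± 0.02% in sgB2/T618I (SD, n = 3). The single groups gave an exact permutation p = 0.1 for both chromosomes (two-sided, adjusted p = 0.133 over 20 chromosomes), the smallest possible. That result was not particular to them. Shares of 15 of the 20 chromosomes did not overlap between the single groups, 14 higher in sgNT/T618I and 1 higher in sgB2/Empty. Shares are parts of a whole, so a higher share of chromosome 1 goes with lower shares elsewhere. By size, the sgB2/Empty mean differed from that of sgNT/T618I by -15.2% on X and by -6.24% on chromosome 15, the next lowest. In equal-length lists the X difference turned to -0.12 percentage points. The labels link the guide with no other factor, and what lies behind a shift of a whole chromosome was not tested. Guide and cell population cannot be told apart with 1 Asxl1 guide.

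**Figure D5:**
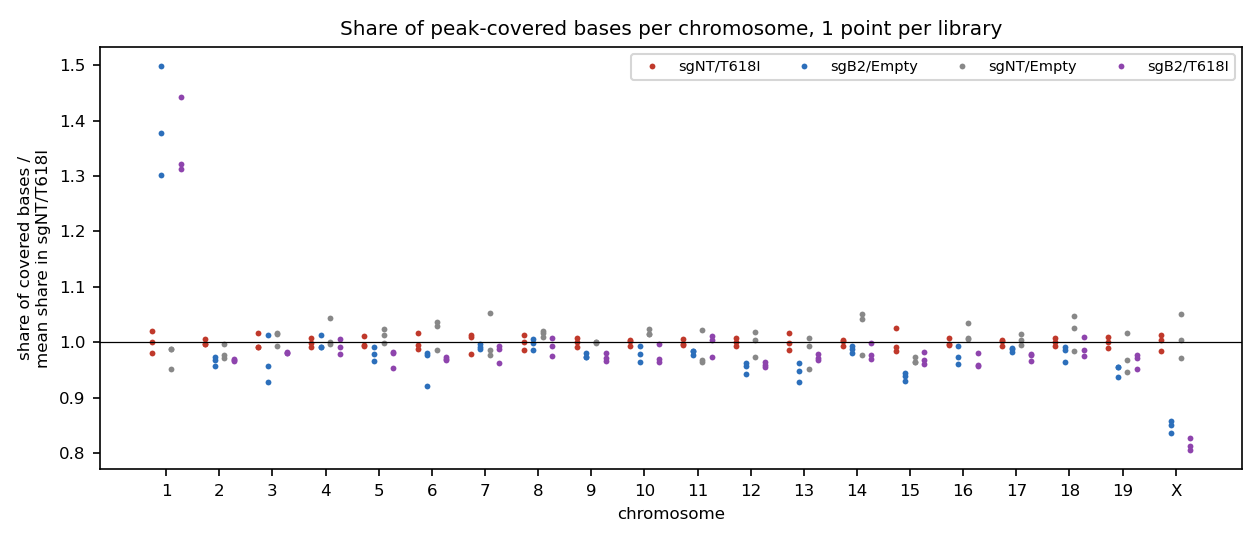
Share of peak-covered bases on each chromosome divided by the mean share in sgNT/T618I (vertical axis), 1 point per library, for chromosomes 1 to 19 and X (horizontal axis). The 6 libraries with the Asxl1 guide lie at 1.3 or higher on chromosome 1 and lowest on X, while the other chromosomes stay near 1.

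Counts of called genes on these chromosomes leaned the same way as the shares. On chromosome 1, 113 of 945 genes were higher in sgB2/Empty (12%, 78 loci) and 6 higher in sgNT/T618I (0.635%, 4 loci), with a median of all its genes of -0.33 and 11.7% of them above 0. A called gene here is therefore to be read against the shift of the whole chromosome. On X, 24 of 368 genes were higher in sgNT/T618I (6.52%, 14 loci) and 0 in sgB2/Empty by limma (51 and 19 at an unadjusted p below 0.05), and the median was -0.02. Of regions, 68 of 3224 on chromosome 1 were on the T618I side (2.11%) and 89 on the sgB2 side (2.76%), and of 772 on X 64 (8.29%) and 3 (0.389%). These region counts depended on the lists: on chromosome 1 they became 53 against 42 with stricter peaks, 117 against 58 where a peak had to cover 50% of the region, 123 against 102 without sgNT/T618I replicate 2, 127 against 118 without sgB2/Empty replicate 3 and 9 against 220 in equal-length lists. On X they became 2 against 40 in equal-length lists. On the other autosomes the region counts were 1997 (6.03%) and 276 (0.833%) of 33117. Among the 64 X regions, 24 (37.5%) went with sgNT/Empty and 7 (10.9%) with sgB2/T618I, against 14.5% and 36.8% of the T618I-side regions of the other autosomes.

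Some chromosome 1 genes were higher with T618I against that shift. Map4k4, a stress kinase gene (39900902 to 40026310) that shares its locus with Il1r2, had 5.67, 6.87 and 6.73 kb in sgNT/T618I against 3.35, 3.19 and 3.38 kb in sgB2/Empty, 2.83, 4.41 and 3.60 kb in sgNT/Empty and, in sgB2/T618I, 6.57, 7.81 and 8.54 kb. Both groups with T618I were high and did not overlap the others (0.86 ± 0.14, limma adjusted p = 0.00231), though the call was lost in equal-length lists (0.38). Rd3, a retinal gene next to the zinc transporter gene Slc30a1 (0.87 ± 0.18), and Il1rl2, an interleukin-1 receptor family gene (0.65 ± 0.18), were called too, and both turned to -0.03 and -0.07 in equal-length lists. Il1rl2 lost its call in 15 of 18 alternatives.

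On the other side of chromosome 1, Rgs13, which encodes a brake on G protein signalling in mast cells and B cells (144137386 to 144177372), was listed at 0 in all sgNT/T618I libraries. It had 1.38, 2.29 and 1.41 kb in sgB2/Empty, 0.00, 0.50 and 0.52 kb in sgNT/Empty and, in sgB2/T618I, 0.85, 0.70 and 0.87 kb (limma adjusted p = 0.000178). Fmn2, an actin nucleator gene (174501752 to 174822729), had 0.00, 0.00 and 0.15 kb against 2.19, 1.70 and 1.59 kb (-2.08 ± 0.30, limma adjusted p = 0.000875), with 0.00, 0.39 and 0.00 kb in sgNT/Empty and, in sgB2/T618I, 0.77, 1.88 and 0.42 kb. Pappa2, a protease gene, gave -1.50 ± 0.29. All 3 genes stayed under 1 kb in every sgNT/Empty library.

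The largest difference of all was on X, at Pls3, the gene of the actin-bundling protein plastin (75785653 to 75875182). It had 2.93, 3.18 and 3.21 kb in sgNT/T618I against 0.00, 0.30 and 0.36 kb in sgB2/Empty, 0.39, 3.34 and 3.07 kb in sgNT/Empty and, in sgB2/T618I, 0.38, 0.30 and 0.21 kb. All 6 libraries with the Asxl1 guide were low, 5 of 6 with the non-targeting guide were high, and 1 sgNT/Empty library lay with the low ones (2.37 ± 0.39, limma adjusted p = 0.00256). Tlr13, the receptor for bacterial ribosomal RNA (106143275 to 106160493), had 3.18, 2.10 and 2.91 kb in sgNT/T618I against 0.72, 0.64 and 0.72 kb in sgB2/Empty, 0.68, 0.97 and 1.09 kb in sgNT/Empty and, in sgB2/T618I, 1.76, 1.97 and 1.90 kb. It followed the receptor instead, with the double group in between (1.42 ± 0.16, limma adjusted p = 0.00013), and shares its window with the housekeeping gene Pgk1. At 8030474K03Rik, in 1 locus with Cxcr3, sgB2/Empty was listed at 0 in all libraries, against 0.88, 0.98 and 0.88 kb in sgNT/T618I.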

How the data were processed

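ATAC-seq peak lists of 12 libraries in 4 groups of 3 were used. Per the submitters' processing notes, the authors worked on mm10 with BWA 0.7.17, SAMtools 1.9, bedtools 2.30, MACS2 2.2.7.1 and deepTools 3.5, and the deposited files are 1 broad peak list per library. The deposited score and fold (ratio) columns were not used. The deposited −log10 p ordered peaks for the equal-length lists, and the deposited −log10 q gave ranks and the stricter lists (at least 5). Reads were not used here, so depth is unknown and the number of libraries limits precision.

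Chromosomes 1 to 19 and X were kept. Peaks were merged at 1 bp overlap. Covered length in each gene span ± 50 kb (21627 protein-coding genes, GRCm38.p6) was scaled to equal total length, 500 bp were added, and genes averaging 500 bp or more were fitted as log2 values with limma 3.58.1 (trend, R 4.3.3) to 4 groups over 12 libraries. Library measures, similarity and chromosome shares were tested by exact permutation (scipy 1.17.1). On simulated data for this comparison (15282 genes) 84 of 100 genes given a log2 difference of 1 were recovered and 29 of 100 given 0.5, and the fit called 6 others and 0 in an unchanged comparison. Differences were planted only in genes above a coverage floor, and genes were drawn independently with normal noise. Real windows overlap and many values are 0, so these rates need not hold here, least of all for named genes of low coverage.

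The comparison and the 15 gene lists (260 genes, 258 in the reference) were chosen with earlier results of these data known. Named were the 8 largest called differences per direction, 1 per locus, outside chromosomes 1 and X, the 3 largest per direction on each of those, at most 4 members per list by p, Asxl1, Csf3r and Hoxb8, and top-ranked regions and promoters. Other list members named in the report were chosen after their values were seen. Single values of 2 list members are not reported here. Alternatives were other windows, scalings, filters, added lengths, stricter and equal-length lists, a covariate, a replicate block and each library left out. Promoter sequences are from RefSeq, which has windows for 17273 genes in its table.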

Additional observations from a re-analysis of the deposited data

How the results depend on the processing

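With the replicate number as a block, 531 genes were higher in sgNT/T618I and 275 in sgB2/Empty, 739 of them called without it. Same-numbered libraries did not deviate together (correlations 0.02, -0.03 and 0.01), so the numbers do not pair the libraries. The count of called genes (825, as 532 and 293) became 271 (194 and 77) with a 10 kb window, 353 (240 and 113) with stricter peaks, 499 (307 and 192) with list length (peaks per library) as a covariate, and 1196 and 14 without scaling. Over fits with 1 library left out it ranged from 301 to 662 (207 to 461 and 79 to 201), and regions from 2359 to 3272 on the T618I side and from 452 to 933 on the sgB2 side. Stricter peaks left 1404 T618I-side regions, and equal-length lists 261 against 1871. In equal-length lists wide peaks fill the length with fewer peaks. The X share difference was -0.12 percentage points in equal-length lists. There Rd3 (-0.034), Il1rl2 (-0.069), Myb (-0.87), Lmo2 (-0.61), Erg (-0.34), Ccr2 (-0.29), Vpreb1 (0.19), Epor (0.17), Ms4a2 (0.0017), Hdc (-0.31), Etv6 (-0.32), Asxl1 (-0.042), Suz12 (0.045) and Gata4 (0.048) changed sign. So did, among the genes reported, Mpo (0.15), Irf9 (0.25), Zbtb46 (0.19), Vpreb1 (0.066), Cd79a (0.11), Epor (0.065), Suz12 (0.21) and Gata4 (0.14) without scaling, Myb (-0.57), Erg (-0.33), Ebf1 (0.67) and Hoxb8 (-0.019) with stricter peaks, Irf9 (0.070), Gp9 (0.20) and Eed (-0.17) with a 10 kb window, and Hoxb8 (-0.031) with list length as a covariate. The cause was not tested. Of 53 named genes that were called, 23 kept the call in every alternative that measured them and 7 changed sign in at least 1. Without counts, differences of low coverage and absent peaks cannot be told from shallow sequencing.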

Other observations

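A small set of regions set 1 single-change group apart from every other library. Of the T618I-side regions, 51 were found in all 9 libraries outside sgB2/Empty, among them those near Ankrd33 and Ngp, and of the sgB2-side regions 9 were found in all 9 libraries outside sgNT/T618I, among them the Afap1 promoter and a region inside Hecw2, a ubiquitin ligase gene (chromosome 1, 54129022 to 54129394). A further 165 T618I-side regions were found in sgNT/T618I alone, among them 1 inside Nrp2, a semaphorin receptor gene (chromosome 1, 62760103 to 62760440), and 44 in sgB2/Empty alone.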
